A study of Mus musculus with 27 samples.

Results

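Disulfiram (DSF) was given to splenic B cells under 2 stimuli, and the question here is where its effect on a gene depended on the stimulus. For each gene the quantity is the DSF effect with IL-4+anti-CD40 minus the DSF effect with LPS, on the log2 scale, so that a positive difference means a DSF effect that was more positive with IL-4+anti-CD40. It was estimated from 16 of the 27 samples of the series, the first experiment's 4 groups of 4 libraries, for all genes with enough reads, which were 15130 of the 54532 genes counted. The B cells came from the spleens of wild-type C57BL6 mice, of unstated age, and were cultured for 3 h with LPS, with LPS and 1 μM DSF, with IL-4+anti-CD40, or with IL-4+anti-CD40 and 1 μM DSF, the cells without DSF being given DMSO. A further group of 4 libraries, without stimulus or inhibitor, was used for library checks and for an alternative fit of all 20 libraries, and a second experiment with 1 library per group supplied independent values for the same 4 conditions. The study describes the libraries of a group as biologically independent samples, and whether they came from separate mice is not stated, so the p-values measure the spread between these libraries.

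LPS is sensed by Toll-like receptor 4 and drives B cells without T cell help, through NF-κB and through interferon regulatory factors. IL-4 and anti-CD40 stand in for T cell help: IL-4 acts through STAT6, and CD40 ligation through TNF receptor-associated factors and NF-κB. DSF is a drug against alcohol dependence that blocks aldehyde dehydrogenase and reacts with thiols and metal ions. A gene whose DSF effect differs between the stimuli may go up under one and down under the other, may move the same way to a different extent, or may pass the test under one stimulus alone, and these classes are kept apart below.

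Total counts were between 17804851 and 23632992 per library in the 16 libraries, and no pair of replicates agreed within sampling noise (over 24 pairs, the chi-square divided by the number of genes was 3.21 to 24.3). B cell markers summed to between 8060 and 12100 CPM (TMM-normalized counts scaled to the library size) in the 16 libraries, against 51.6 to 148 for T cell markers, 133 to 292 for myeloid markers and 149 to 473 for dendritic cell markers. The dendritic cell list holds Bst2, which is also in the interferon-stimulated list below. Bst2 alone had means of 220 CPM with LPS, 329 with LPS+DSF, 37.4 with IL-4+anti-CD40 and 64.8 with IL-4+anti-CD40+DSF. Neutrophil markers summed to at most 24.8 CPM, and NK cell and erythroid markers to at most 8.47 and 6.63. The T cell sum was higher with DSF under both stimuli, at 133 to 148 against 77.6 to 84.8 CPM with LPS and at 126 to 138 against 51.6 to 68.2 with IL-4+anti-CD40, while the myeloid sum was higher with DSF under IL-4+anti-CD40 (211 to 292 against 176 to 208) and overlapped with LPS (146 to 151 against 133 to 153). In the T cell list 7 of 10 genes were testable, of which Cd2 (difference 1.22) and Il7r (-0.66) differed between the stimuli, and in the myeloid list 1 of 9 differed, Lyz2 (0.44). The marker genes named here were chosen after their values were seen. Of the dendritic cell list 2 of 10 differed, Itgax (-0.91) and Zbtb46 (-0.80), and none of the neutrophil, NK cell and erythroid lists did (edgeR's adjusted p; at an unadjusted p under 0.05 0 of 4 NK, 0 of 4 erythroid, 0 of 7 neutrophils genes passed, and DESeq2 called 0, 0, 0). Cd3g had group means of 0.118 to 0.559 CPM, Ncr1 was at 0 in the LPS group and Ly6g in the IL-4+anti-CD40+DSF group, and the part of other cells in the results was not tested. In bulk RNA, a change in the number of cells of a type cannot be told apart from a change in RNA per cell.

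The vehicle libraries of the IL-4+anti-CD40 group were not alike, and this bears on every result below. In that group 301 of 9757 genes (3.08%) spanned at least 2-fold between their lowest and highest library, against 21 with LPS, 24 with LPS+DSF and 114 with IL-4+anti-CD40+DSF. Libraries 3 and 4 were at least 2-fold above libraries 1 and 2 for 148 genes and at least 2-fold below them for 2. Hspa1b, an inducible HSP70 chaperone, had 15.7, 22.6, 181 and 688 CPM in the 4 vehicle libraries, and between 3440 and 5440 CPM in the 8 DSF libraries of both stimuli. Hmox1, the haem oxygenase induced by oxidative stress, had 9.77, 17.7, 129 and 252 CPM there, against 12.7 to 14.9 CPM with LPS alone. Rsad2, an antiviral interferon-stimulated gene, had 2.66, 3.84, 12.9 and 23.2 CPM in the vehicle libraries and 7.97, 10.6, 39.3 and 50 CPM in the DSF libraries of IL-4+anti-CD40, so libraries 3 and 4 were the higher ones in both groups, with 529 to 567 CPM with LPS alone. Of the 148 genes, 84 rose with DSF under LPS and 86 were at least 2-fold higher with LPS than in IL-4+anti-CD40 libraries 1 and 2, and 147 (99.3%) met at least 1 of these conditions, against 40.7% of the 9757 genes. The 148 were chosen by a low level in libraries 1 and 2, which also raises the LPS excess over them, so these 2 shares are not on equal terms. The rise with DSF under LPS, measured between other libraries, was met by 56.8% against 35.1% of the 9757. In the DSF group 56 genes were at least 2-fold higher in libraries 3 and 4 than in 1 and 2, of which 42 were among the 148. With LPS alone, libraries 3 and 4 were also above 1 and 2 for Mt1 (2.65, 2.41, 28.8 and 16.2 CPM) and Hspa1b (20.8, 16.2, 42.5 and 38.5 CPM). They were not for Rsad2 and Ccl5 (Ccl5 193, 203, 214 and 190 CPM). All LPS libraries stayed in the fits without libraries 3 and 4 of IL-4+anti-CD40 or of both its groups. What set the libraries numbered 3 and 4 apart was not tested. Results are therefore given from all 16 libraries, without IL-4+anti-CD40 libraries 3 and 4, and, where it matters, without libraries 3 and 4 of both IL-4+anti-CD40 groups, a choice made after seeing these values.

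**Figure D1:**
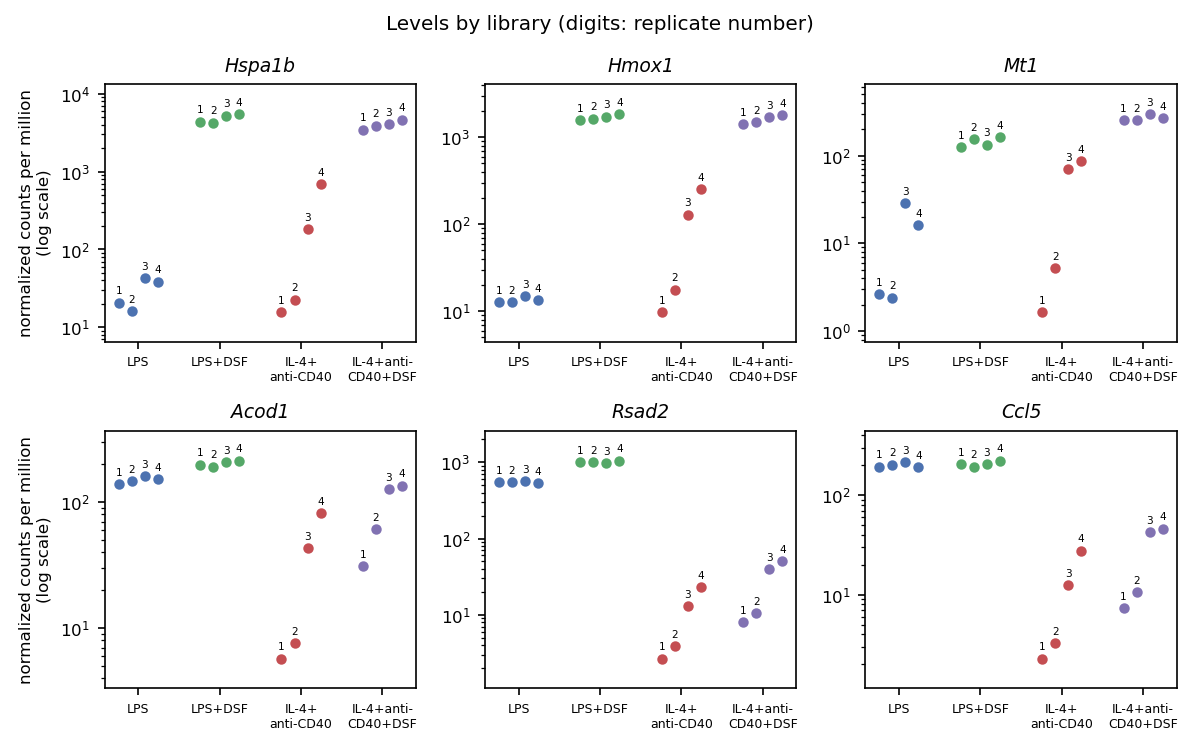
CPM of 6 genes in each library (log axis, 4 libraries per group, digits give the replicate number). In the IL-4+anti-CD40 group, libraries 3 and 4 were above 1 and 2 for all 6 genes, with Hspa1b at 15.7 and 22.6 against 181 and 688 CPM. The same held for all 6 in the DSF group of that stimulus, by smaller ratios for Hspa1b, Hmox1, Mt1, Acod1 and Ccl5 and a similar one for Rsad2. With LPS alone, libraries 3 and 4 were above 1 and 2 for Mt1 (2.65 and 2.41 against 28.8 and 16.2 CPM), Hspa1b, Hmox1 and Acod1, but not for Rsad2 and Ccl5.

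The DSF effect differed between the stimuli for 2252 of 15130 genes, or 14.9% (edgeR's quasi-likelihood test of the difference, 4 libraries per group, Benjamini-Hochberg adjusted p under 0.05). For 1053 genes (6.96%) it was more positive with IL-4+anti-CD40 and for 1199 (7.92%) with LPS. This split depended on the scaling: with total counts, which moved the median difference over all genes from -0.02 to 0.04, it was 1423 to 826. Against the same stimulus without it, DSF lowered 4943 genes (32.7%) and raised 5001 (33.1%) with LPS, and lowered 4727 (31.2%) and raised 4756 (31.4%) with IL-4+anti-CD40. On the scale of total counts, where the median DSF effect over all genes was -0.19 (LPS) and -0.15 (IL-4+anti-CD40), 6557 genes were lower and 3503 higher for LPS, against 6139 lower and 3601 higher for the other stimulus. With all 20 libraries in one fit 915 genes differed, 710 to 205. Of the 2252 genes, 224 had moved in opposite directions, which is 1.48% of all genes tested and 9.95% of those that differed. The opposite genes split into 138 lowered with LPS and raised with IL-4+anti-CD40 and 86 of the reverse, against 170 and 58 with total counts and 152 and 66 with DESeq2's size factors. A further 1087 (48.3%) had moved the same way to a different extent, 933 (41.4%) passed the threshold under 1 stimulus only, and 8 under neither. The differences were mostly small: their median size was 0.50 among the 2252 genes, 352 were of at least 1 in log2 (2-fold), and only 13 were shown to exceed 1 by edgeR's test against that minimum, of which 8 were opposite. Genes that differed were also the better measured ones, with a median of 52.9 CPM against 13.9 for all genes tested. Of the 12878 genes that did not pass, 8823 (68.5%) had a 95% interval of the difference inside -1 to 1, and the other 4055 could hide a difference of 2-fold or more. At the threshold itself, Bcl7a (difference 0.35, adjusted p = 0.0499) was just inside and Ift140 (0.23, adjusted p = 0.0501) just outside.

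**Figure D2:**
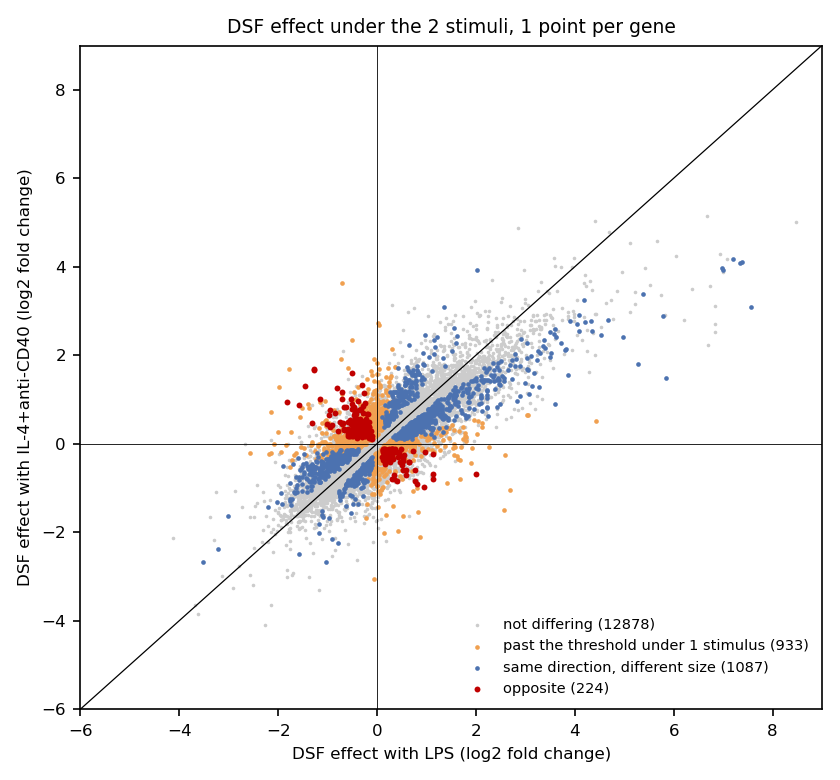
DSF effect of each gene with LPS (x axis) against that with IL-4+anti-CD40 (y axis), as log2 fold changes, with the line of equal effects; colours give the class, and the 8 genes that passed under neither stimulus are not drawn. The 224 opposite genes lie at the upper left (138) and the lower right (86).

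Leaving out IL-4+anti-CD40 libraries 3 and 4 raised the number of genes that differed to 2874 of 15778, of which 1835 were among the 2252 (81.5% of the first set, 63.8% of the second), and 5 of the 2252 had a difference of the other sign. The opposite class grew from 224 to 305, with 192 genes in both. The class that moved the same way turned over: with all libraries the effect was larger with LPS for 754 genes and larger with IL-4+anti-CD40 for 333, whereas without the 2 libraries these numbers were 531 and 976, and without libraries 3 and 4 of both groups 526 and 962. Of the class lowered with LPS and raised with IL-4+anti-CD40, 90.6% kept its class without the 2 libraries, and of the reverse class 77.9%, 105 of the 224 were opposite in each of the 16 fits that left out 1 library, in the fit without the 2 libraries and in the fit without 4.

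**Figure D3:**
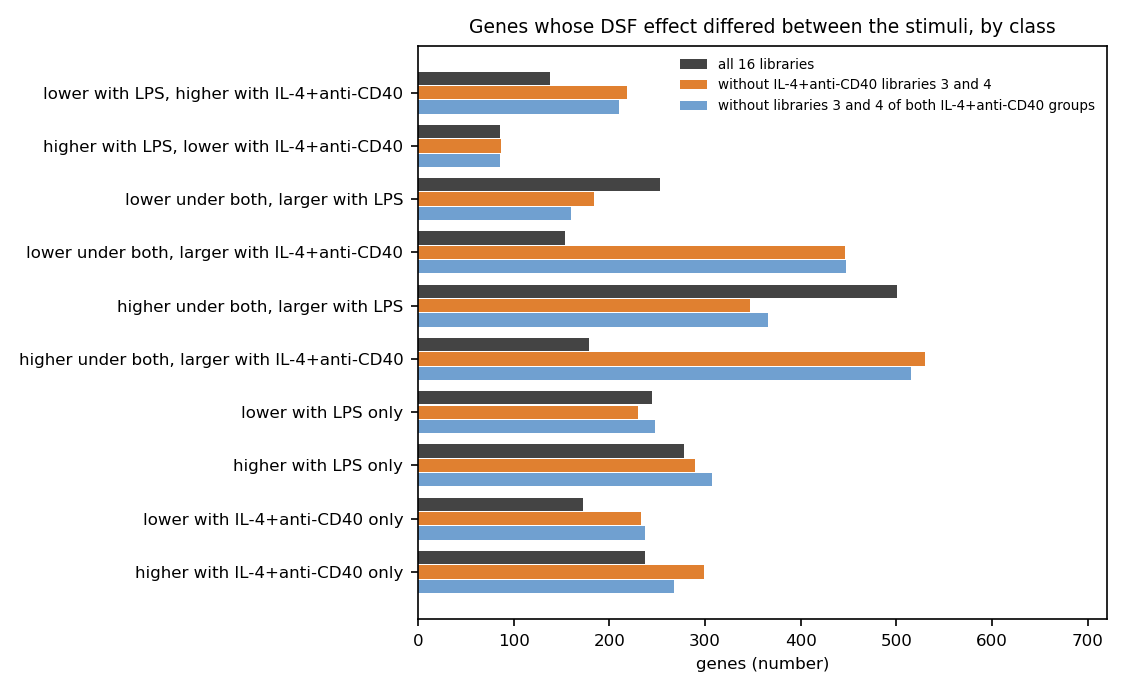
Number of genes in each class of differing DSF effect, from all 16 libraries, without IL-4+anti-CD40 libraries 3 and 4, and without libraries 3 and 4 of both IL-4+anti-CD40 groups. The bars for effects larger with IL-4+anti-CD40 grew from 154 to 446 (lower under both) and from 179 to 530 (higher under both) when the 2 libraries were left out, while the class raised with LPS and lowered with IL-4+anti-CD40 stayed at 86 or 87.

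DSF lowered 138 genes with LPS that it raised with IL-4+anti-CD40. Their median effects were -0.40 (LPS) and 0.38 (IL-4+anti-CD40), and the size of the difference ran from 0.223 to 2.96. The 5 named have the largest differences among protein-coding genes with enough counts and no overlap between DSF and vehicle libraries, and include Fc receptor family members and a surface enzyme. Fcgr2b (mm10, chr1:170958617-170976547), the inhibitory Fc receptor that dampens B cell receptor signals, had 164, 181, 159 and 161 CPM with LPS and 61.2, 59.6, 61.3 and 58.7 CPM with LPS+DSF. With IL-4+anti-CD40 it had 18.2, 22.2, 29.5 and 38.2 CPM, and with DSF added 71.4, 70.9, 66.1 and 68.3 CPM. The gene was thus lowest with IL-4+anti-CD40 and highest with LPS, and under DSF both stimuli gave nearly the same level. The log2 effects were -1.45 and 1.31, the difference was 2.76 ± 0.18 (SE, adjusted p = 8.1e-09), and without IL-4+anti-CD40 libraries 3 and 4 it was 3.16.

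Cd38 (chr5:43868553-43912375), an ectoenzyme that consumes NAD and marks B cell subsets, had 64.7, 64.2, 67.8 and 66.1 CPM with LPS and 29.4, 29.6, 28.6 and 28.4 CPM with LPS+DSF. With IL-4+anti-CD40 it had 13.8, 15.1, 20.9 and 28.2 CPM, and with DSF 44.5, 34.5, 45.9 and 38.4 CPM, so the groups of neither stimulus overlapped. The difference was 2.18 ± 0.20 (adjusted p = 3.5e-07). Fcrla (chr1:170917576-170927583), an intracellular Fc receptor-like protein of B cells, fell from between 116 and 127 CPM to between 44.3 and 51.8 with LPS, and rose from between 18.8 and 26.5 to between 32.9 and 35.8 with IL-4+anti-CD40 (difference 1.79 ± 0.11, adjusted p = 3.1e-09).

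Scml4 and Jun were the nuclear proteins among the 5. Scml4 (chr10:42860370-42960780), a Polycomb-related protein, had 27.4 to 29.7 CPM with LPS against 8.49 to 10.3 with DSF, and 2.48 to 3.52 CPM with IL-4+anti-CD40 against 5.15 to 5.95 with DSF (difference 2.46 ± 0.15, adjusted p = 1.8e-09). Jun (chr4:95049034-95052222), a subunit of the AP-1 transcription factor, had 372, 396, 382 and 365 CPM with LPS and 260, 253, 266 and 276 with LPS+DSF. With IL-4+anti-CD40 it had 48.3, 54.8, 57.8 and 86.0 CPM, and 178, 191, 193 and 218 with DSF. Its effects were -0.51 and 1.61 (difference 2.11 ± 0.16, adjusted p = 2.8e-08), so most of the difference lay in the rise with IL-4+anti-CD40.

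DSF raised 86 genes with LPS that it lowered with IL-4+anti-CD40, with median effects of 0.27 and -0.23 and differences of 0.244 to 2.69 in size. The 5 named include a retinoid enzyme, a lipid receptor and regulators of kinase and membrane traffic. Dhrs3 (chr4:144892827-144928209), which reduces retinal to retinol, had 5.15, 4.99, 4.84 and 4.97 CPM with LPS and 8.56, 11.1, 9.0 and 9.34 with LPS+DSF. With IL-4+anti-CD40 it had 45.1, 48.5, 41.6 and 34.6 CPM, and 24.2, 24, 21.2 and 20.5 with DSF. All IL-4+anti-CD40 libraries, with and without DSF, were above all LPS libraries, and the difference was -1.92 ± 0.16 (adjusted p = 8.9e-08). S1pr3 (chr13:51408639-51422797), a receptor for sphingosine-1-phosphate, which guides lymphocyte position, rose from between 5.48 and 7.0 to between 11.0 and 15.5 CPM with LPS and fell from between 57.3 and 73.1 to between 37.4 and 43.4 CPM with IL-4+anti-CD40 (difference -1.82 ± 0.15, adjusted p = 8.9e-08).

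Dusp10 (chr1:184013302-184075636), a phosphatase that inactivates the stress kinases p38 and JNK, rose from 6.68 to 8.23 CPM with LPS alone to 14 to 17.3 with DSF, and its fall with IL-4+anti-CD40, from 27.2 to 31.5 down to 25.1 to 27 CPM, was the smallest of the 5 at -0.23 (difference -1.36 ± 0.12, adjusted p = 1.8e-07). Rab35 (chr5:115631908-115647736), a small GTPase of endosome recycling, had 62.4 to 68.0 CPM with LPS and 87.9 to 98.6 with DSF, and 268 to 304 CPM with IL-4+anti-CD40 and 188 to 205 with DSF (difference -1.12 ± 0.08, adjusted p = 1.8e-08). Tgfb2 (chr1:186622792-186705989), a transforming growth factor, was the least abundant, with at most 2.25 CPM in any library, and its difference was the least precise (-1.61 ± 0.31, adjusted p = 0.0012). The strand setting of the counting is not given in the sources used here, and 9 of these 10 genes overlap another annotated gene, so a part of their reads could come from it.

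**Figure D4:**
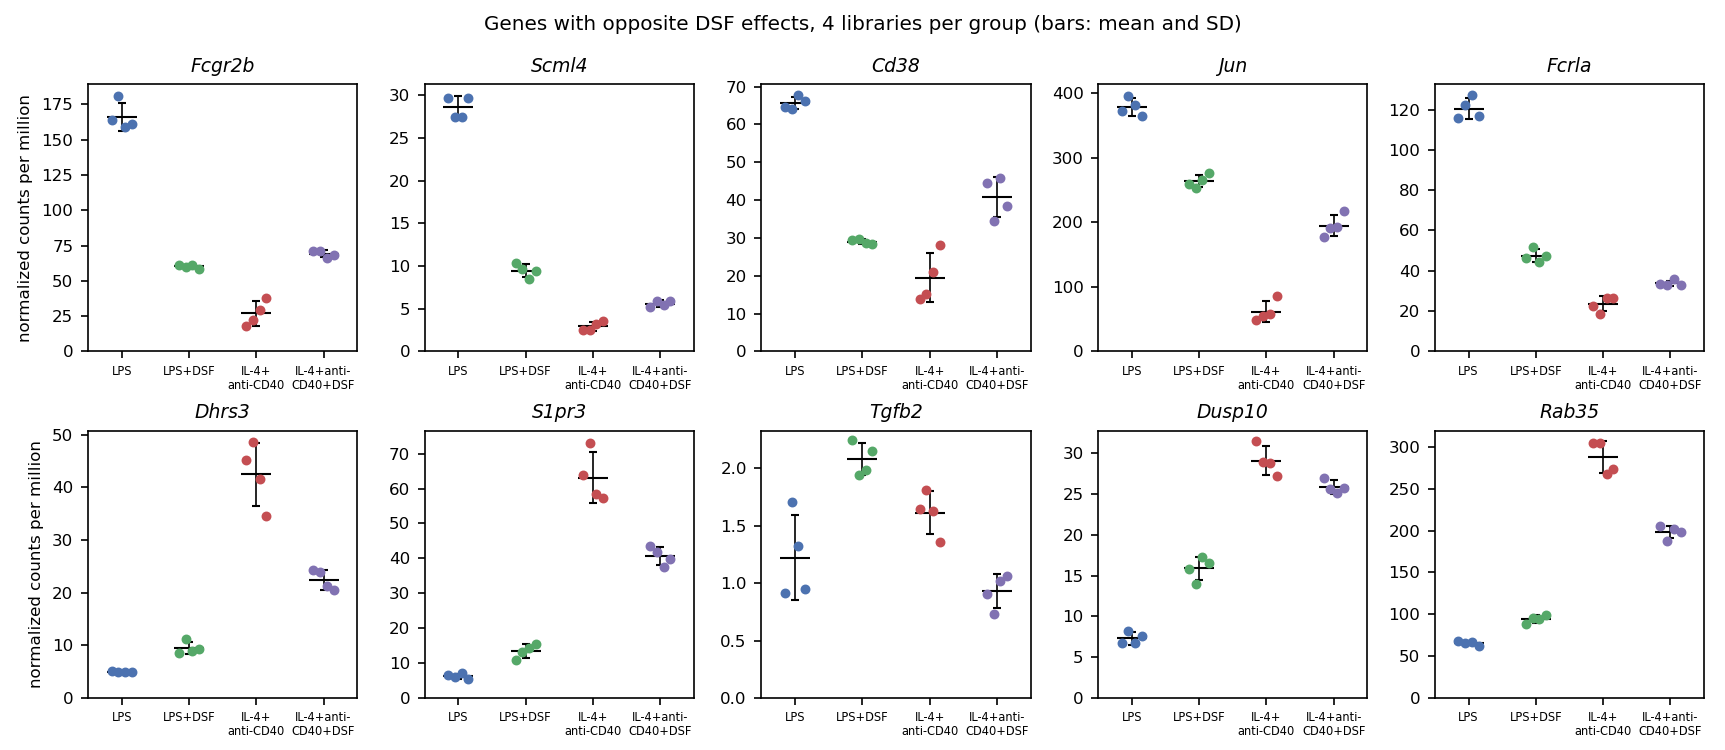
CPM of the 10 named genes with opposite DSF effects in the 4 libraries of each group (points), with mean and SD. In the upper row DSF lowered the level with LPS and raised it with IL-4+anti-CD40, as for Fcgr2b from 159 to 181 down to 58.7 to 61.3 CPM and from 18.2 to 38.2 up to 66.1 to 71.4 CPM; in the lower row the directions were the reverse.

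Immunoglobulin constant regions, left out of the naming rule because it asks for protein-coding genes as annotated, were chosen after their values were seen. Germline transcripts of Ighg1 and Ighe precede class switching, and IL-4 with CD40 ligation induces both. Ighg1 had 7.37 to 9.28 CPM with LPS, 8.98 to 11.1 with LPS+DSF, 29.2 to 38.1 with IL-4+anti-CD40 and 18 to 21.7 with IL-4+anti-CD40+DSF. Unstimulated libraries had 28.9, 28.3, 10.2 and 14.1 CPM, so libraries 1 and 2 of that group were near the IL-4+anti-CD40 level. Counts per gene do not separate germline from other transcripts. The Ighg1 difference was -1.13 ± 0.15 (adjusted p = 3.0e-05), with effects of 0.34 and -0.80. Ighe was in the same class (difference -2.69 ± 0.66, adjusted p = 0.0085), but had at most 0.175 CPM in the LPS libraries and 2.59 CPM anywhere. In the second experiment the log2 ratios of Ighe were -0.50 and 0.33, with a difference of the other sign (0.83), and those of Ighg1 were -0.58 and -2.59. Ighd, the constant region of IgD, fell with LPS only, from between 1230 and 1400 to between 909 and 956 CPM (difference 0.36 ± 0.06, adjusted p = 0.00040), and for Ighm (0.19, adjusted p = 0.059) and Ighg3 (-0.10, adjusted p = 0.57) the difference did not pass.

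The levels before DSF set the 2 opposite classes apart in a measure that the classes did not use, the second experiment's libraries without DSF. In that experiment 121 of the 133 measured genes lowered with LPS and raised with IL-4+anti-CD40 (91.0%) were higher with LPS than with IL-4+anti-CD40, and 14 of 85 in the reverse class (16.5%), against 49.9% of the 13939 genes measured in both experiments. The median log2 ratio of LPS to IL-4+anti-CD40 was 0.60 in the first class and -0.29 in the second. In the first experiment, where the same vehicle libraries enter the difference, the shares were 96.4% of 138 and 15.1% of 86, and the distance between the stimuli was smaller with DSF than without it for 91.3% and 62.8% of the 2 classes against 51.6% of all genes, a measure that uses the libraries by which the classes were defined. The ratios of the second experiment have no replicates and are given as descriptions.

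The DSF difference itself could be set beside the second experiment as well, with 1 library per group. There the sign of the difference was the same for 1815 of 2202 differing genes (82.4%) and for 201 of 218 opposite genes (92.2%), against 63.1% of all genes measured in both. Both single effects pointed the same way as in the first experiment for 85 of the 218 opposite genes (39.0%), namely 59 of 133 lowered with LPS and 26 of 85 raised with LPS, while 7.01% and 6.28% of all genes had those 2 patterns of signs in the second experiment. Fcgr2b, Scml4 and Fcrla kept both directions there, with differences of 1.70, 1.75 and 1.81. Cd38 did not, with 0.98 for LPS and 1.61 for IL-4+anti-CD40, and nor did Jun, with 1.83 and 1.82. Of the reverse class, S1pr3 (1.29 and -0.76), Dusp10 (1.62 and -0.09), Rab35 (0.66 and -0.73) and Dhrs3 (0.04 and -1.85) had the same pair of signs, and Tgfb2 was lower under both.

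Among genes that DSF moved the same way under both stimuli, 253 were lowered more with LPS and 154 were lowered more with IL-4+anti-CD40. Ehd3, a membrane-trafficking ATPase, fell from 22.9 to 26.4 CPM to 5.89 to 7.25 with LPS and from 2.96 to 3.90 to 1.93 to 2.88 with IL-4+anti-CD40 (difference 1.41 ± 0.17, adjusted p = 1.4e-05), though in the second experiment the log2 ratios were -1.24 (LPS) and -2.85 (IL-4+anti-CD40). Apol7c was the other with the largest difference in its class (1.39, adjusted p = 0.0087), and did not pass without libraries 3 and 4 of both IL-4+anti-CD40 groups (0.96, adjusted p = 0.057). Cr2, the complement receptor CD21 that lowers the threshold of B cell activation, went the other way: it had 128 to 136 CPM with LPS, 86.6 to 93.7 with LPS+DSF, 540 to 718 with IL-4+anti-CD40 and 211 to 242 with IL-4+anti-CD40+DSF. Its difference was -1.04 ± 0.11 (adjusted p = 2.8e-06), and -1.12 without libraries 3 and 4 of both groups. With all 20 libraries in one edgeR fit it was -0.97 and did not pass (adjusted p = 0.45). Syn1, at 2.13 CPM or less in every library, had a difference of -1.46 that was close to the threshold (adjusted p = 0.049) and did not pass without libraries 3 and 4 of both groups (adjusted p = 0.15). Per library it had 0.866, 0.569, 1.58 and 1.34 CPM with LPS, 0.728, 0.628, 0.386 and 0.680 with LPS+DSF, 2.11, 2.13, 1.67 and 1.99 under IL-4+anti-CD40, then 0.706, 0.312, 0.279 and 0.415 with DSF added.

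DSF raised 501 genes more with LPS and 179 more with IL-4+anti-CD40. The 2 with the largest difference in the first class, Xirp1 and Hspa1b, did not pass without libraries 3 and 4 of IL-4+anti-CD40. For Hspa1b the difference was -3.27 (adjusted p = 0.032) with all libraries and 0.26 (adjusted p = 0.64) without the 2, and it was -0.02 in the second experiment. Xirp1 had counts in 1 of the 4 LPS libraries, at 0.0481 CPM, and in IL-4+anti-CD40 it was listed at 0 in libraries 1 and 2 and at 0.362 and 1.36 CPM in 3 and 4, against 2.63 to 4.37 CPM in the DSF libraries of both stimuli. Its fitted difference turned from -4.48 to 1.58 without the 2 libraries and depends on the prior count. Hspa1a and Hspa1b are near-identical copies, and their split of reads is uncertain. In the other class, Ifit1bl2, of the interferon-induced tetratricopeptide family, had 2.65 to 3.84 CPM with LPS and 12 to 13.2 with DSF, and 0.0459, 0.0926, 0.181 and 0.262 CPM with IL-4+anti-CD40 and 1.87, 2.71, 2.14 and 2.68 with DSF (difference 1.92, adjusted p = 0.0013). Spp1, the cytokine osteopontin, had a difference of 1.75 ± 0.24 (adjusted p = 5.2e-05) and 2.25 without the 2 libraries.

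Genes past the threshold under 1 stimulus only were 245 lowered and 278 raised with LPS, and 173 lowered and 237 raised with IL-4+anti-CD40. The largest differences in these classes were mostly of genes with few counts. Gucy2c, a receptor guanylate cyclase known from gut epithelium, was listed at 0, 0.175, 0.105 and 0 CPM with LPS and had 1.88, 1.83, 1.35 and 1.81 with LPS+DSF, while IL-4+anti-CD40 gave 2.61, 2.32, 1.31 and 1.52 and DSF 2.27, 2.66, 3.16 and 3.37 (difference -3.94 ± 0.58, adjusted p = 0.00010). Hlx, a homeobox transcription factor, was well measured: it had 1.16 to 2.12 CPM with LPS, 1.74 to 3.00 with DSF, 20.1 to 24.8 with IL-4+anti-CD40 and 5.45 to 6.32 with IL-4+anti-CD40+DSF (difference -2.40 ± 0.24, adjusted p = 1.1e-06). Egln3, a prolyl hydroxylase that marks hypoxia-inducible factors for decay, had 0.289, 0.656, 0.368 and 0.223 CPM with LPS, 0.607, 0.856, 0.643 and 0.736 with DSF, 5.23, 4.35, 2.85 and 3.20 under IL-4+anti-CD40, then 0.807, 0.625, 1.44 and 0.877 with DSF (difference -2.96 ± 0.48, adjusted p = 0.00027), and its effects in the second experiment were 2.31 and -2.16.

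Azin2, an antizyme inhibitor, had 0.144, 0.306, 0.263 and 0.112 CPM with LPS and at most 0.0643 with LPS+DSF, and 1.39 to 1.63 and 1.09 to 1.67 CPM without and with DSF under IL-4+anti-CD40. Its difference of 2.36 (adjusted p = 0.040) did not pass without the 2 libraries (adjusted p = 0.061). The second genes of these classes, Pilra (2.33), Ttc21a (-2.84) and Cav1 (2.72, and 6.37 without the 2 libraries), likewise had no more than 1.79, 1.11 and 1.58 CPM in any of the 16 libraries. Ttc21a did not pass without the 2 libraries (adjusted p = 0.053). The fitted differences of genes with a group near 0 depend on the prior count.

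In each list below, the counts of genes that differed are to be read against 6.96% of all genes tested in the positive and 7.92% in the negative direction, positive meaning a DSF effect more positive with IL-4+anti-CD40. The B cell receptor signals through the kinases Lyn, Syk and Btk to adaptors and calcium, and Fcgr2b and Cd72 restrain it. Of 28 genes tested 13 differed in the positive and 4 in the negative direction, with a median difference of 0.17 against -0.02 for all genes, and 4 were opposite. Rasgrp3, which links the receptor to Ras, had log2 effects of -1.60 under LPS and -0.32 under IL-4+anti-CD40 (difference 1.28 ± 0.08, adjusted p = 3.7e-09), from 194 to 219 down to 64.4 to 71.8 CPM and from 37.7 to 44.2 down to 33.8 to 34.9 CPM. The other named members, Fcgr2b and Cr2, are described above. Without IL-4+anti-CD40 libraries 3 and 4 the counts were 16 and 4, and with all 20 libraries in one fit 8 and 1.

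Of 31 regulators of the B cell and plasma cell states, 13 were more positive and 4 more negative (median 0.27, and 0.16 without the 2 libraries). Xbp1, the transcription factor of the secretory program, rose with LPS only, from 65.1 to 70.4 up to 108 to 118 CPM, whereas with IL-4+anti-CD40 it had 218 to 225 CPM without DSF and 219 to 226 CPM with it (difference -0.80 ± 0.06, adjusted p = 3.9e-08). Sdc1, the plasma cell marker CD138, fell with LPS (-0.74) and did not pass with IL-4+anti-CD40 (0.01; difference 0.74, adjusted p = 0.020). Tbx21, which encodes T-bet, rose more with IL-4+anti-CD40 (1.40 against 0.56).

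In the unfolded protein and integrated stress response, 17 of 30 genes had a more positive DSF effect with LPS and 1 a more negative one, with a median difference of -0.38. These genes cover chaperones of the endoplasmic reticulum and the amino acid response driven by ATF4. Ddit4, an inhibitor of mTOR signalling, rose from 9.54 to 14.7 up to 30.6 to 37.3 CPM with LPS and from 38.4 to 47.1 up to 61.2 to 64.9 CPM with IL-4+anti-CD40 (difference -1.03 ± 0.14, adjusted p = 2.6e-05). Sesn2, another stress-induced inhibitor of mTOR, had effects of 1.08 and 0.22 (difference -0.87 ± 0.08, adjusted p = 7.4e-07). Nupr1 was the exception, lowered with LPS (-0.46) and raised with IL-4+anti-CD40 (0.78). Without the 2 libraries the counts were 20 and 1 and the median -0.37, with all 20 libraries in one fit the counts were 5 and 1, and in the second experiment the list's median difference was -0.56.

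Synthetases that charge tRNAs moved in part with it. Of 36 genes 8 were more positive with LPS and none the other way (edgeR, adjusted p under 0.05), with a median of -0.10. Aars (0.88 for LPS, 0.37 for IL-4+anti-CD40), Cars (1.03 and 0.57) and Iars (0.29 and -0.14) had the largest differences, and Iars was 1 of 3 opposite members. Ribosome biogenesis genes, which process and assemble ribosomal RNA, were lowered under both stimuli (56 of 71 with LPS, 67 of 71 with IL-4+anti-CD40), and 23 differed, all with a more negative effect with IL-4+anti-CD40. Their median effects were -0.33 and -0.55. Without the 2 libraries the number was 58, with total counts 14, and with all 20 libraries in one fit 0. Nol10, Pno1 and Utp20 had differences of -0.38, -0.36 and -0.36. Purine synthesis genes gave 3 negative and 1 positive of 22 with all libraries, among them Shmt1 (-0.35), Mthfd2 (-0.33) and Prps2 (0.48), but 13 and 1 without the 2 libraries, and 0 with all 20 libraries in one fit.

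Pyrimidine synthesis and salvage genes, which supply nucleotides to dividing cells, were lowered under both stimuli (18 of 29 each) with a median difference of 0.04. 4 differed in the positive and 3 in the negative direction. Ctps2, which makes CTP, fell with LPS only (59.1 to 61.6 down to 40.5 to 44.0 CPM), and had 22.4 to 25.7 CPM with IL-4+anti-CD40 and 24.4 to 30.2 with DSF (difference 0.61 ± 0.09, adjusted p = 0.00011). Thymidylate synthase Tyms and thymidine kinase Tk1 fell with IL-4+anti-CD40 only, by 0.95 and 0.79, with differences of -0.96 and -0.60.

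Targets of IL-4 and STAT6 split. Of 34 genes 6 were more negative with IL-4+anti-CD40 and 4 more positive (median -0.06), and 3 were opposite. Cish, a feedback inhibitor that STAT factors induce, had 27.9 to 35.6 CPM with LPS and 29.3 to 36.1 with DSF, and fell from 139 to 147 down to 70.4 to 72.5 CPM with IL-4+anti-CD40 (difference -1.14 ± 0.10, adjusted p = 1.8e-07). Fcer2a, the low-affinity IgE receptor CD23, fell under both, from 605 to 649 down to 458 to 482 CPM with LPS and from 2270 to 3300 down to 1040 to 1150 CPM with IL-4+anti-CD40 (difference -0.99 ± 0.12, adjusted p = 1.5e-05). The third named, Maf, went against them: it rose by 1.20 with IL-4+anti-CD40 (difference 1.02, adjusted p = 0.023).

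MHC class II presentation genes gave 5 negative and 1 positive of 17 (median -0.02), and 0 and 0 with all 20 libraries in one fit. The peptide-loading chaperones H2-DMb1 (difference -0.74) and H2-DMa (-0.65) and the promoter-binding factor Rfx5 (-0.48) fell with IL-4+anti-CD40. H2-DMb1 had 40.6 to 51.6 CPM with LPS and 41.6 to 45.0 with DSF, and 162 to 180 down to 97.8 to 102 CPM with IL-4+anti-CD40. Cholesterol synthesis genes, which SREBP2 controls, gave 10 negative and 1 positive of 25 (median -0.27), 11 and 0 without the 2 libraries, and 0 and 1 with all 20 libraries in one fit, with Insig1 (-0.49) and Stard4 (-0.48) among the negative ones. Insig1, which holds SREBP2 back, rose with LPS (0.55) and did not pass with IL-4+anti-CD40 (0.05), whereas Stard4, a cholesterol transfer protein, fell with IL-4+anti-CD40 (-0.57) and did not pass with LPS (-0.09).

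Receptors for chemokines and for positioning gave 8 positive and 4 negative of 26 (median 0.05). Beside S1pr3, the adhesion receptor Cd44 fell with IL-4+anti-CD40 from 1030 to 1480 down to 487 to 533 CPM, with 451 to 478 CPM under LPS and 386 to 412 under LPS+DSF (difference -1.17 ± 0.12, adjusted p = 2.3e-06). Ccr6, the receptor for CCL20, fell under LPS (-3.52) and, to a lesser extent, under IL-4+anti-CD40 (-2.68). The CD40 and TNF receptor signalling genes gave 2 positive and 5 negative of 21 (median -0.03), with Traf5 (0.87) and Tnfrsf1b (0.44) more positive and Tnfrsf14 (-0.62) more negative. The BCL2 family gave 2 and 3 of 14 (median -0.09): the pro-apoptotic Bmf was opposite, falling from 32.4 to 36.1 down to 22.8 to 26.1 CPM with LPS and rising from 7.32 to 9.65 up to 15.4 to 16 CPM with IL-4+anti-CD40 (difference 1.30 ± 0.11, adjusted p = 2.4e-07). Anti-apoptotic Bcl2 fell more with LPS (-1.50 against -0.46) and Bcl2l1, which encodes BCL-XL, more with IL-4+anti-CD40 (-1.21 against -0.74, and a difference of -0.47 that was -0.72 without libraries 3 and 4 of both groups).

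The MYC network and G1 list gave 3 positive and 5 negative of 26 (median -0.08), with Ccnd2, cyclin D2, lowered from 1720 to 1850 down to 882 to 952 CPM with LPS and from 1610 to 2240 down to 557 to 657 CPM with IL-4+anti-CD40 (difference -0.73 ± 0.12, adjusted p = 0.00027). Mxi1, a MYC antagonist, had a difference of 0.67 and E2f1 one of -0.54 that did not pass without the 2 libraries (-0.44, adjusted p = 0.086) or without libraries 3 and 4 of both groups (adjusted p = 0.066). The p53 targets gave 2 and 6 of 21 (median -0.17), with Btg2 (0.90), Sesn2 and Tnfrsf10b (-0.79) in front, and 1 of 9 histone genes, Hist1h1c, differed (-0.63). Glycolysis genes gave 3 and 5 of 24 (median -0.10). Beside Egln3, the hypoxia-responsive Bnip3 had a difference of 0.88, and Gapdh, which has near-identical copies that make its counts uncertain, one of -1.24 that did not pass without the 2 libraries (-0.56, adjusted p = 0.14).

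Heat shock and NRF2 target genes depended on the 2 vehicle libraries of IL-4+anti-CD40. With all libraries 7 of 25 cytosolic heat shock genes and 7 of 23 NRF2 targets differed, all more positive with LPS, with medians of -0.36 and -0.34. Both groups rose under both stimuli, 21 and 22 of the 25 heat shock genes and 20 and 20 of the 23 NRF2 targets. Without the 2 libraries the medians were -0.09 and -0.04, and 3 heat shock genes and 4 NRF2 targets were more positive with IL-4+anti-CD40 and 4 of each more negative. With all 20 libraries in one fit, none of either list differed. Hspa1a went from -3.24 to 0.185 (adjusted p = 0.77), Hmox1 from -3.06 to -0.20 (adjusted p = 0.51) and Gclm, a subunit that makes glutathione, from -1.21 to -0.12 (adjusted p = 0.33). Hsph1, an HSP110 chaperone, and Nqo1, a quinone reductase, still passed, at -0.35 and -0.57 instead of -1.12 and -1.39. Metal response genes gave 1 and 1 of 10, Atox1 (0.48), a copper chaperone, and Mtf1 (-0.29), the metal-sensing transcription factor.

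Immediate early genes, which respond first to receptor signals, gave 4 positive and 9 negative of 27, and their median of -0.24 was 0.00 without the 2 libraries. With all 20 libraries in one fit 3 were positive and 1 negative. Beside Jun, Dusp1, a phosphatase that ends MAP kinase signals, rose more with IL-4+anti-CD40, from 8.30 to 21.6 up to 68.3 to 85.2 CPM against 69.8 to 84.8 up to 136 to 157 with LPS (difference 1.49 ± 0.23, adjusted p = 0.00016, and 2.06 without the 2 libraries). Maff, a small MAF protein, rose more with LPS (difference -1.88, and -0.69 without the 2 libraries).

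For interferon-stimulated genes, the median difference was positive in all 3 sets of libraries, but the number of genes that passed and their direction depended on the set. With all libraries 6 of 50 passed, all positive, with a median of 0.51. Without IL-4+anti-CD40 libraries 3 and 4, 33 passed, all positive, with a median of 1.18, and without libraries 3 and 4 of both groups 27 were positive and 7 negative, with a median of 0.58. The second experiment gave a median of 0.25, from DSF effects of -1.83 and -1.70. Ifi205, of the p200 family of DNA sensors, had 49.0 to 59.4 CPM with LPS and 45.0 to 54.4 with LPS+DSF. With IL-4+anti-CD40 it had 1.65, 1.81, 8.64 and 14.4 CPM, and 11.8, 16.7, 37.2 and 35.7 with DSF. Its difference was 1.98 with all libraries, 3.87 without 2 and 3.03 without 4. Oas2 (1.22, and 2.42 without the 2 libraries) and Ifi203 (0.91, and 1.46) were the others named. With DESeq2, Ifi205 (adjusted p = 0.069) and Oas2 (adjusted p = 0.11) did not pass. With all 20 libraries in one edgeR fit, 2 of the 50 were positive and 0 negative. None of the named ones passed there (adjusted p = 0.064 for Ifi205, 0.25 for Oas2 and 0.20 for Ifi203). The levels with IL-4+anti-CD40 were far below those with LPS.

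Of 40 cytokines and chemokines 5 were positive and none negative (edgeR, adjusted p under 0.05), with a median of 0.51 where the second experiment gave -0.42. The counts were 16 and none without the 2 libraries, and 13 and 1 without 4 (median 0.27). Tnfsf9, the ligand of 4-1BB, had a difference of 1.49 (2.56 without the 2 libraries), and Il1b one of 1.35 (1.81, and 0.95 without libraries 3 and 4 of both groups), being lowered with LPS (-1.12) and not passing with IL-4+anti-CD40 (0.23). Ccl9 was the third named (0.74, and 1.12 without the 2 libraries). NF-κB targets gave 4 positive and 8 negative of 36 (median -0.05), and the 3 with the largest difference were positive: Ptges, which makes prostaglandin E2 (2.29, and 4.15 without the 2 libraries), Tnfsf9 and Il1b. TLR signalling genes gave 4 positive and 2 negative of 28 (median -0.01), with the LPS co-receptor Cd14 at 1.66 and the nucleic acid receptors Tlr9 at 0.62 and Tlr7 at 0.51. Without the 2 libraries Cd14 was at 2.50 and Tlr7 at 0.79.

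Housekeeping complexes had median differences from -0.10 to 0.14 with all 16 libraries, and the number of genes that passed depended on the complex and the library set. Of 77 cytosolic ribosomal protein genes, whose near-identical copies make counts uncertain, 2 passed, Rps27 (0.45) and Rpl37a (0.36), and neither did so without the 2 libraries. Of 70 nuclear genes of the respiratory chain 6 passed, all positive (median 0.14), but without the 2 libraries 4 were positive and 3 negative. Atp5k (0.67), Ndufa6 (0.48) and Uqcrh (0.38) had the largest differences. Atp5k did not pass without the 2 libraries (adjusted p = 0.095), and none of the 3 passed without libraries 3 and 4 of both groups (adjusted p = 0.28, 0.15 and 0.11). Of 31 proteasome subunits 4 passed, all negative (median -0.10), with Psmd1 (-0.46), Psmd14 (-0.31) and Psmd11 (-0.29). Without libraries 3 and 4 of both groups 13 of the 31 passed, all negative, against 1450 negative of all 15623 genes tested in that fit. None of the 13 mitochondrially encoded genes differed, with mt-Co1 at 0.09 and mt-Cytb at 0.12, and DSF raised 9 of them under LPS and 11 under the other stimulus (edgeR, adjusted p under 0.05). At an unadjusted p under 0.05 the difference passed for 2 of the 13, and DESeq2 called 1 (mt-Co2; the unadjusted ones were mt-Co2 and mt-Nd6, all named after their values were seen).

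**Figure D5:**
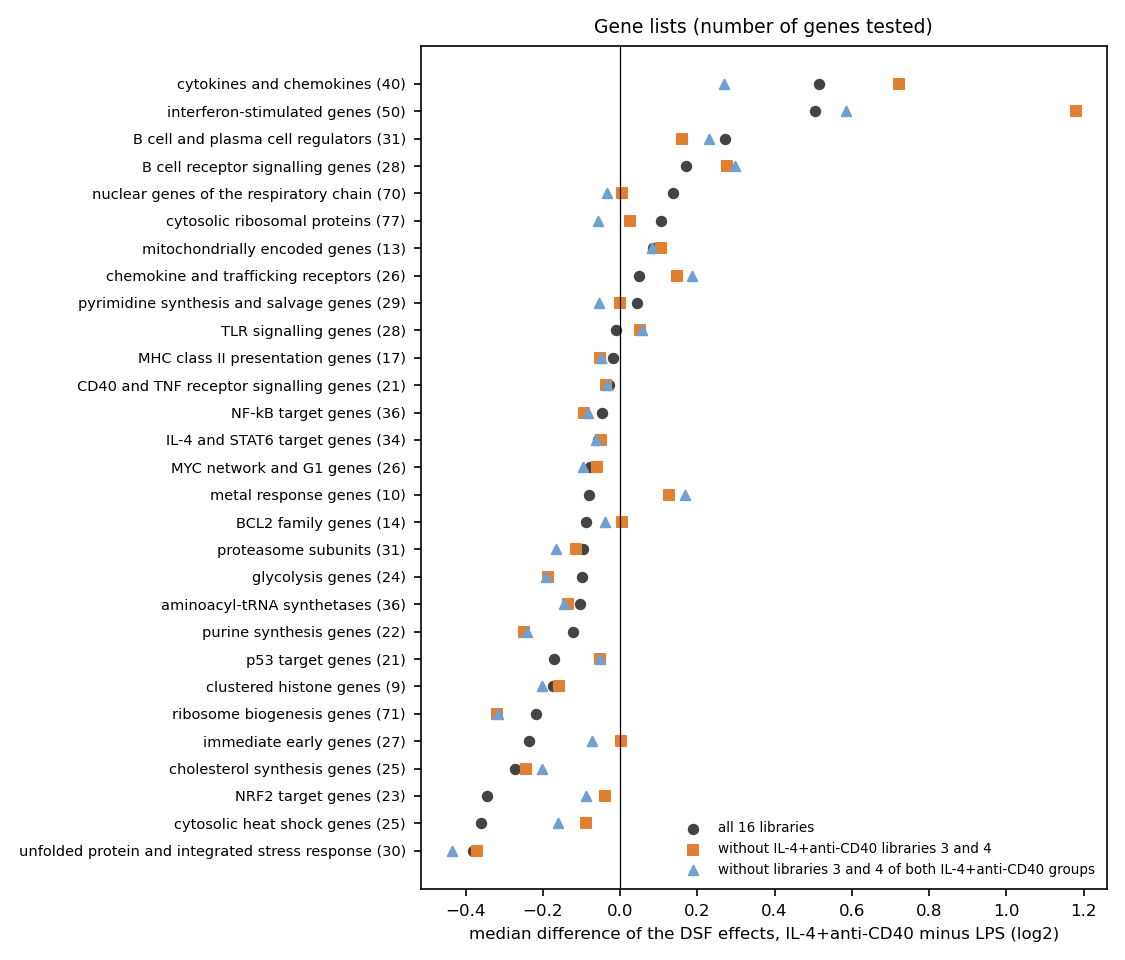
Median difference of the DSF effects (log2, IL-4+anti-CD40 minus LPS) in each gene list, from all 16 libraries, without IL-4+anti-CD40 libraries 3 and 4 and without libraries 3 and 4 of both IL-4+anti-CD40 groups. The unfolded protein list stayed between -0.44 and -0.37, the heat shock and NRF2 lists moved from -0.36 and -0.34 to -0.09 and -0.04, and the interferon-stimulated genes went from 0.51 to 1.18 and 0.58.

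Promoters were read from RefSeq (GRCm38.p6) for the 250 bases before each start, which 10043 of the genes tested had. The core of the interferon-stimulated response element, searched as GAAANNGAA on both strands, stood in 11.3% of 799 promoters of genes more positive with IL-4+anti-CD40 and in 5.74% of 889 of genes more positive with LPS, against 7.68% of all. It stood in 16 of 115 promoters (13.9%) of genes lowered with LPS and raised with IL-4+anti-CD40, in 3 of 65 of the reverse class (4.62%), and in 22 of 39 of the interferon-stimulated list (56.4%). The STAT motif TTCNNNGAA was in 8.14% and 6.30% of the 2 groups against 7.35% of all, the NF-κB motif GGGNNTTTC in 4.76% and 4.72% against 4.44%, the heat shock element TTCNNGAA in 8.14% and 8.32% against 7.13%, and the AP-1 motif TGANTCA in 6.51% and 6.52% against 5.44%. In the classes lowered with LPS and raised with IL-4+anti-CD40, and the reverse, they were in 8.70% and 4.62% (STAT), 7.83% and 4.62% (NF-κB), 6.09% and 9.23% (heat shock element) and 9.57% and 6.15% (AP-1). A match is a description of letters and says nothing of binding. The promoters below are examples. Fcrla, Ifit1bl2 and Ifi205 are among the named genes more positive with IL-4+anti-CD40 that hold the interferon element, and Hsph1 is a heat shock gene more positive with LPS. The heat shock element also stood in promoters of Ccl9, Ifi203 and Traf5, which were more positive with IL-4+anti-CD40. On the IL-4+anti-CD40 side Apol7c, Spp1, Pilra, Ifi203, Rasgrp3, Traf5 and Tnfrsf1b held the interferon element as well. Named genes more positive with LPS held it too: Dhrs3, Tnfrsf14 and Nol10. A second Ifit1bl2 promoter had no match, and Hspa1a and Hspa1b had no match to TTCNNGAA. Other arrangements of the heat shock element were not searched, so this does not show that the Hspa1a and Hspa1b promoters lack the element. Capitals mark the matches, and all 4 promoters shown are on the minus strand, written 5′ to 3′.
Fcrla, chr1:170927584-170927833: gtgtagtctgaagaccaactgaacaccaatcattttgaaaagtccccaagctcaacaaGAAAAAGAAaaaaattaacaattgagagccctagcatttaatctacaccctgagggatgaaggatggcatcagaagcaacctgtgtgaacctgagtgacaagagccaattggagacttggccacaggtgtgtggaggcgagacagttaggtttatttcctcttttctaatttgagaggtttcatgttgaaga
Ifit1bl2, chr19:34640744-34640993: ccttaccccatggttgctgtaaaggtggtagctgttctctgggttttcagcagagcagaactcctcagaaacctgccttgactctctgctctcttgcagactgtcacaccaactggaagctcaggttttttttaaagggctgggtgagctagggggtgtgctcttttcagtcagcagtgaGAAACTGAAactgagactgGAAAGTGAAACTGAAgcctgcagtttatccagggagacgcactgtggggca
Ifi205, chr1:174031756-174032005: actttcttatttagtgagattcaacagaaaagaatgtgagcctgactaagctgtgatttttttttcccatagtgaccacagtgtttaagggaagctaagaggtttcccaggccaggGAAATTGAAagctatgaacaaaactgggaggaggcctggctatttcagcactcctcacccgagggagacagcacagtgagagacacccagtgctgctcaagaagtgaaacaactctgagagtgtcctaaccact
Hsph1, chr5:149636337-149636586: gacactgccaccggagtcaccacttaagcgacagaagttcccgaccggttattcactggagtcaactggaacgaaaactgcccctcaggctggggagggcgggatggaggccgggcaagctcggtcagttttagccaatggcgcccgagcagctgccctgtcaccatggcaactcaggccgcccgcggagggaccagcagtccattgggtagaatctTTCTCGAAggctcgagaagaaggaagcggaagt
The match in Fcrla began 192 bases before the start and that in Ifi205 134 bases before it. Ifit1bl2 had 3 overlapping or neighbouring matches, beginning 70, 51 and 45 bases before the start, and the heat shock element of Hsph1 began 33 bases before it.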

How the data were processed

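RNA sequencing of splenic B cells was analysed from the gene counts that the authors deposited. Per the labels and the study's methods, reads were trimmed with Fastp, aligned to mm10 with HISAT2 (2.0.5) and counted per gene with featureCounts (1.5.0-p3). The annotation release and the strand setting are not given in the sources used here. FPKM values deposited beside them were not used. The series has 27 samples: 20 in the first experiment and 7 in the second.

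The 16 libraries of the 4 groups were fitted together with edgeR (4.0.16, R 4.3.3, limma 3.58.1): genes passing filterByExpr, TMM normalization, a quasi-likelihood test of each DSF effect and of their difference, and Benjamini-Hochberg adjustment over all genes tested, with a threshold of 0.05. Classes follow from the 3 tests. For differences that did not pass, the 95% interval was used only to count the genes with an interval inside -1 to 1. Total counts were 17804851 to 23632992 per library. Counts were also simulated with differences planted in 200 genes, and 14904 genes were tested. There edgeR found 74 of 100 at a log2 difference of 1 and 11 of 100 at 0.5, with 3 false calls. The simulation set the spread between libraries by hand, gave both stimuli the same vehicle level and had no split within a group. It therefore does not give the precision or the rate of false calls in the real libraries. The second experiment, with 1 library per group, gave log2 ratios with a prior count of 2 and no test, where the mean count was 10 or more.

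Named genes have a protein-coding biotype, an informative symbol, an adjusted p under 0.05 for the difference, and no library below 10 counts in the group where they are highest: the 5 largest differences per opposite class without overlap between DSF and vehicle libraries, the 2 largest in each other class, and up to 3 members per gene list, with 2 by count where none passed. Of these, 2 are not reported here. The members and lists were chosen with earlier results of these data known. Alternatives were DESeq2 (1.42.0), other scalings and filters, a minimum difference of 1 in log2, all 20 libraries, a replicate block, leaving out each library, and leaving out IL-4+anti-CD40 libraries 3 and 4. Leaving out libraries 3 and 4 of both IL-4+anti-CD40 groups was added after seeing the data.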

Additional observations from a re-analysis of the deposited data

Results flagged for a closer look

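Among the named genes with per-library values, 68 groups of 4 libraries were compared, and in 3 of them 1 library stood apart from the other 3 by Dixon's criterion, which chance meets in about 1 in 20 groups. These were Ehd3 in LPS library 4 (22.9 CPM), Xirp1 in LPS library 1 (0.0481 CPM, the only LPS library with a count) and Gucy2c in LPS+DSF library 3 (1.35 CPM).

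The DSF effect differed between the stimuli, by the test of the difference itself, for 2252 genes, and 95 of the 97 named genes past the threshold are collected here with their difference in log2, positive where the DSF effect was more positive with IL-4+anti-CD40. For the named genes that moved in opposite directions it was Fcgr2b 2.76, Scml4 2.46, Cd38 2.18, Jun 2.11, Fcrla 1.79, Rab35 -1.12, Dusp10 -1.36, Tgfb2 -1.61, S1pr3 -1.82 and Dhrs3 -1.92. For those that moved the same way under both stimuli it was Ifit1bl2 1.92, Spp1 1.75, Ehd3 1.41, Apol7c 1.39, Cr2 -1.04, Syn1 -1.46, Hspa1b -3.27 and Xirp1 -4.48. For those past the threshold under 1 stimulus it was Cav1 2.72, Azin2 2.36, Pilra 2.33, Hlx -2.40, Ttc21a -2.84, Egln3 -2.96 and Gucy2c -3.94. For members of the gene lists that were more positive with IL-4+anti-CD40 it was Ptges 2.29, Ifi205 1.98, Cd14 1.66, Dusp1 1.49, Tnfsf9 1.49, Il1b 1.35, Bmf 1.30, Rasgrp3 1.28, Nupr1 1.25, Oas2 1.22, Bcl2 1.04, Maf 1.02, Ifi203 0.91, Btg2 0.90, Bnip3 0.88, Traf5 0.87, Tbx21 0.84, Ccr6 0.84, Sdc1 0.74, Ccl9 0.74, Atp5k 0.67, Mxi1 0.67, Tlr9 0.62, Ctps2 0.61, Tlr7 0.51, Atox1 0.48, Prps2 0.48, Ndufa6 0.48, Rps27 0.45, Tnfrsf1b 0.44, Uqcrh 0.38 and Rpl37a 0.36. For members of the lists that were more positive with LPS it was Psmd11 -0.29, Mtf1 -0.29, Psmd14 -0.31, Mthfd2 -0.33, Shmt1 -0.35, Utp20 -0.36, Pno1 -0.36, Nol10 -0.38, Iars -0.43, Cars -0.46, Psmd1 -0.46, Bcl2l1 -0.47, Stard4 -0.48, Rfx5 -0.48, Insig1 -0.49, Aars -0.51, E2f1 -0.54, Tk1 -0.60, Tnfrsf14 -0.62, Hist1h1c -0.63, H2-DMa -0.65, Ccnd2 -0.73, H2-DMb1 -0.74, Tnfrsf10b -0.79, Xbp1 -0.80, Sesn2 -0.87, Tyms -0.96, Fcer2a -0.99, Ddit4 -1.03, Hsph1 -1.12, Cish -1.14, Cd44 -1.17, Gclm -1.21, Gapdh -1.24, Nqo1 -1.39, Maff -1.88, Hmox1 -3.06 and Hspa1a -3.24. Hspa1a, Hspa1b and Xirp1 changed sign without IL-4+anti-CD40 libraries 3 and 4.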

How the results depend on the processing

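The 2252 differing genes became 915 with all 20 libraries in one fit (205 more positive with LPS, 112 opposite, 349 of different size, 454 under 1 stimulus). Against a minimum log2 difference of 1 they became 13 (8 more positive with IL-4+anti-CD40, 5 with LPS; 8 opposite, 0 of different size, 5 under 1 stimulus), with DSF effects of 364 lower and 1014 higher genes for LPS and 221 and 702 for IL-4+anti-CD40; that 0 stands for edgeR's test against the minimum, while edgeR's plain test and DESeq2 gave 1087 and 1243. Leaving out 1 library at a time gave 1854 to 2529 differing genes, 884 to 1268 more positive with IL-4+anti-CD40, 954 to 1261 with LPS, 188 to 265 opposite, 834 to 1230 of different size and 803 to 1028 under 1 stimulus. For the DSF effect under each stimulus it gave 4712 to 5028 lower and 4774 to 5112 higher with LPS and 4444 to 4748 and 4464 to 4855 with IL-4+anti-CD40. Without IL-4+anti-CD40 libraries 3 and 4, and without libraries 3 and 4 of both groups (added after seeing the data), the difference changed sign for Xirp1 (1.58 and 1.34), Hspa1b (0.26 and 0.13) and Hspa1a (0.185 and 0.0686). In the second experiment, total counts gave 79.5% of differing genes the same sign. Of the 97 named genes past the threshold, 9 kept direction and call in every one of the 26 alternatives. Same-numbered libraries correlated at -0.117 to 0.37 in their deviations, 6 of 24 best with their own number. The highest values, 0.37 for replicates 1 and 4, were between IL-4+anti-CD40 and its DSF group. Since not every pair exceeded 0.1, the numbers were not taken as pairing the samples. With the replicate block 2159 genes differed and 13 of the named genes did not pass. With all 20 libraries in one edgeR fit, 64 of the named genes did not pass. Among them were Fcer2a (adjusted p = 0.14), Tyms (0.19), Bcl2 (0.16) and H2-DMb1 (0.22). The cause of these changes was not tested. Depth limits genes of few counts: 4055 genes that did not pass could hide a 2-fold difference.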
